A study of Mus musculus with 31 samples.

Results

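Fibroblasts of the mouse heart, which make most of its collagen matrix, were compared between a 3D and a 2D arrangement by RNA sequencing, in the cultures whose labels give no time. The 3 libraries labelled 3D and the 3 labelled 2D were taken by their titles, which makes 6 of the 29 RNA libraries of the series. Both groups were fibroblasts freshly isolated from hearts of C57Bl/6 mice aged 8 to 12 weeks, with no treatment and no stated genetic change, and the arrangement was the labelled difference between them. No label used here states the substrate, the time in culture or how many mice went into a library, and nothing says that the libraries came from separate cultures. The p-values therefore reflect the spread between libraries of a group, pooled over all 29 RNA libraries, and that spread may be technical.

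A fibroblast that spreads on a flat rigid surface assembles stress fibres, bundles of actin and myosin anchored at integrin adhesions, and this state is known to carry the contractile programme of the myofibroblast. Monomeric actin holds back the cofactor MRTF, which drives serum response factor at the CArG box, and tension also admits the cofactors YAP and TAZ to the nucleus, where they act with TEAD proteins at the letters GGAATG. A dividing cell expresses its G2 and mitosis genes through promoters with CCAAT boxes and the cell cycle homology region, TTTGAA. Genes of the lysosome often carry the letters CACGTG, which the factors TFEB and TFE3 bind.

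The 6 libraries held 12289359, 12944417 and 28330718 gene counts in 2D and 18777061, 19575297 and 26324009 in 3D. Libraries 1 and 2 of each group were far more alike than either was to library 3. The SD over genes of the log2 difference in CPM (the standard depth-scaled count, taken over the effective library total) was 0.343 for 2D libraries 1 and 2. Set against 2D library 3 they gave 0.760 and 0.750. The 3D libraries 1 and 2 gave 0.280 with each other, and 1.06 and 0.966 with 3D library 3. All pairs within a group differed by more than sampling noise. A chi-square of the counts, averaged over genes, was 3.45 for 2D libraries 1 and 2 and 13 for those of 3D. It was 101 to 240 for pairs with library 3. Each library was counted once, and this excess does not show that libraries 1 and 2 came from separate cultures. Reads of 4 Y-linked genes summed to 7, 3 and 2488 counts in 2D libraries 1, 2 and 3 and to 0, 1 and 2498 in 3D, while Xist was read in every library. Each result is therefore given for libraries 1 and 2 and for library 3, except that the test of the difference from 5 days used all 6 libraries. In library 3 there was 1 library per group, whose spread was assumed to be that of the other groups.

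The fibroblast label was checked against 15 markers, none of which was at 0 in any library. Their summed level was 69695, 66047 and 41796 CPM in 2D and 48413, 52817 and 49967 CPM in 3D. Macrophage markers, 27 genes with none at 0 in any library, summed to 1902, 2001 and 2254 CPM in 2D, to 13216 and 9257 CPM in 3D libraries 1 and 2, and to 370 CPM in 3D library 3. The 17 endothelial markers summed to between 528 and 532 CPM in 2D and between 350 and 458 CPM in 3D. Over those tested, the median log2 CPM was 0.167, 0.546 and 1.67 in 2D and 2.47, 2.37 and 0.582 in 3D. Many were thus at low counts, and most of the sum came from the more abundant members. Of the 16 endothelial markers tested, 11 were called higher in 3D in libraries 1 and 2 (6, 2, 7 and 4 without 2D replicate 1, 2D replicate 2, 3D replicate 1 and 3D replicate 2) and 2 in library 3, with median log2 fold changes of 1.86 and -1.36. The 17 epicardial markers summed to 167 CPM in 3D library 3 and to between 449 and 505 CPM in the other libraries. Cardiomyocyte markers came to 20.1, 21.3 and 33.6 CPM in 2D and to 73.6, 78.2 and 212.5 CPM in 3D. Lymphocyte markers came to at most 1.22 CPM and erythroid markers to at most 0.208 CPM. In such bulk samples, fewer cells of a type and less RNA per cell cannot be told apart.

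The sequences that follow are the 250 bases before the start of 7 genes whose lists moved together, from RefSeq on GRCm38.p6, printed 5′ to 3′ on the strand of the gene with the matched motif in capitals. The genes were chosen after their values and motifs were seen. Myl9, a myosin light chain, and Vcl (vinculin), which ties actin to adhesions, hold a CArG box, and Ankrd1, a stretch-responsive cofactor of muscle and stromal cells, holds GGAATG at 2 places. They lie at chr2:156775214-156775463, chr14:20929148-20929397 and chr19:36119845-36120094, the last on the minus strand.
Myl9: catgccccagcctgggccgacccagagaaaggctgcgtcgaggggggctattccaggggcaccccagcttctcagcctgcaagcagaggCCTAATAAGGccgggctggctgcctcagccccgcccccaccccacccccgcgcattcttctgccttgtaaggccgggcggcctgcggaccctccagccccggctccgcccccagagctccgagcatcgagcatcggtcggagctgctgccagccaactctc
Vcl: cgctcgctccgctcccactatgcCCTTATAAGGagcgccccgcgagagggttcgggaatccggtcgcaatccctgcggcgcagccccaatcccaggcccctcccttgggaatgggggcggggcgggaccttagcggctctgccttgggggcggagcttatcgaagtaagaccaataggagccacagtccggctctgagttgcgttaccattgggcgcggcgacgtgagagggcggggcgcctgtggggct
Ankrd1: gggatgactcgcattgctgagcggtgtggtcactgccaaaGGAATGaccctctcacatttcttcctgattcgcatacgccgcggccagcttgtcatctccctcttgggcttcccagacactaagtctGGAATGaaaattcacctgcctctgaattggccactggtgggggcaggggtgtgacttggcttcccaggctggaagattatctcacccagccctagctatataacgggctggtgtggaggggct
Cdc20, an activator of the anaphase-promoting complex, and Cdk1, the kinase of mitosis, hold TTTGAA, at chr4:118437344-118437593 and chr10:69352913-69353162, both on the minus strand.
Cdc20: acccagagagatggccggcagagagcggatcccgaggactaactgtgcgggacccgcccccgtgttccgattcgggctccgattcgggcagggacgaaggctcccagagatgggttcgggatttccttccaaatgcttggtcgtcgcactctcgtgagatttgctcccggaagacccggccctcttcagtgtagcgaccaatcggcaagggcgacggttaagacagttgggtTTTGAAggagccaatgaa
Cdk1: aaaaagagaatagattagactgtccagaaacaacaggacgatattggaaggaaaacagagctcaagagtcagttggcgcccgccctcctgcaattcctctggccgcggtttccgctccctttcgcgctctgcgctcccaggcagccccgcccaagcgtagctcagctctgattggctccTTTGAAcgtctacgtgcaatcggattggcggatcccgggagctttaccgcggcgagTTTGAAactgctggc
Gla (alpha-galactosidase A) and Lamp1, a protein of the lysosomal membrane, hold CACGTG at 2 and 4 places, at chrX:134601006-134601255 on the minus strand and chr8:13158911-13159160.
Gla: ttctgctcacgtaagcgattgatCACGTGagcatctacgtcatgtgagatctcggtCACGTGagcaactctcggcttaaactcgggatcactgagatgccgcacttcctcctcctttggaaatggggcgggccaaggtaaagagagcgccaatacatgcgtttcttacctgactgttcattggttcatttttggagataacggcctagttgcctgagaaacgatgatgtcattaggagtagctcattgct
Lamp1: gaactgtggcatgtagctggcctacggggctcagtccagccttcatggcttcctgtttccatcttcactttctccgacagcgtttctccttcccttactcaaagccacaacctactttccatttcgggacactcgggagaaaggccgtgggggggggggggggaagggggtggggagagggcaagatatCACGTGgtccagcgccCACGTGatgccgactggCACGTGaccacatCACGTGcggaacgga

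All 250-base windows of the promoter table were searched on both strands, 1 window per gene, and 11073 of the 14036 genes tested had one. The CArG box, CC and GG around a core of A and T, was found in 6 of 28 contractile promoters (21.4%), against 1.18% of the tested genes and 1.40% of all 27025 windows. GGAATG or its reverse complement CATTCC was found in 12 of 22 promoters of YAP and TEAD targets (54.5%) and in 11 of 28 contractile promoters (39.3%), against 10.7% of tested genes and 12.6% of all windows. TTTGAA or TTCAAA was found in 6 of 25 mitosis promoters (24.0%), against 10.5% and 16.3%, and CCAAT or ATTGG in 19 of 25 (76.0%), against 36.2% and 34.5%. CACGTG was found in 10 of 32 lysosomal promoters (31.2%), against 8.25% and 6.05%. Among promoters of all genes that fell in both sets, as defined below, GGAATG or CATTCC was in 11.2%, and in 11.5% for rises. CACGTG was in 8.48% of falls and 10.1% of rises, and the CArG box in 2.15% and 0.92%. TTTGAA or TTCAAA was in 12.8% and 9.91%, and CCAAT or ATTGG in 40.8% and 36.3%. CCAAT or ATTGG was also in 57.1% of contractile and 55.6% of FoxO target promoters. CACGTG was in 22.2% of FoxO and 18.2% of YAP and TEAD target promoters. These are matches of letters and not sites of binding. No motif searched contains another, and 1 window can hold several.

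The 6 libraries were fitted together with the other 23 by edgeR's quasi-likelihood test, and a gene was called at a Benjamini-Hochberg adjusted p under 0.05. Of 14036 genes tested, 7576 were called between 3D and 2D (54.0%), 3746 higher in 3D (26.7%) and 3830 lower (27.3%). With library totals alone in place of TMM factors, a scaling that moved the median over all genes from 0.035 to 0.161, the split was 4541 higher and 3130 lower. In libraries 1 and 2, 50.6% of genes were called, of which 3491 were higher (24.9%) and 3607 lower (25.7%), and in library 3, 2578 (18.4%) and 2751 (19.6%). Of the 3491 genes higher in libraries 1 and 2, 1812 were also called higher in library 3, 1593 were not called there and 86 were called lower. Of the 3607 lower ones, 2103 were lower in library 3, 1461 were not called and 43 were higher. Library 3 added 723 rises and 562 falls of its own.

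A gene is written below as having risen or fallen in both sets where it was called in the same direction over all 6 libraries, in libraries 1 and 2, and in library 3. That was so for 1809 rises (12.9% of genes tested) and 2103 falls (15.0%), together 51.6% of the genes called over all 6 libraries. In 1872 of them the change was at least 2-fold in each set. The 3 libraries of 3D did not overlap the 3 of 2D for 56.3% of all genes tested. The test of whether the difference between 3D and 2D was itself unlike in the sets called 842 genes (6.00%), 497 with a higher value in libraries 1 and 2 (3.54%) and 345 with a lower one (2.46%). Both counts fell when a library was left out: without 1 of libraries 1 and 2 they were 168 and 172 (2D replicate 1), 196 and 190 (2D replicate 2), 147 and 170 (3D replicate 1) and 350 and 240 (3D replicate 2), and with these libraries summed 86 and 115. Of these 842 genes, 540 had opposite signs in the sets, and 148 were among those that rose or fell in both. Every count below is to be read against these shares.

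**Figure D1:**
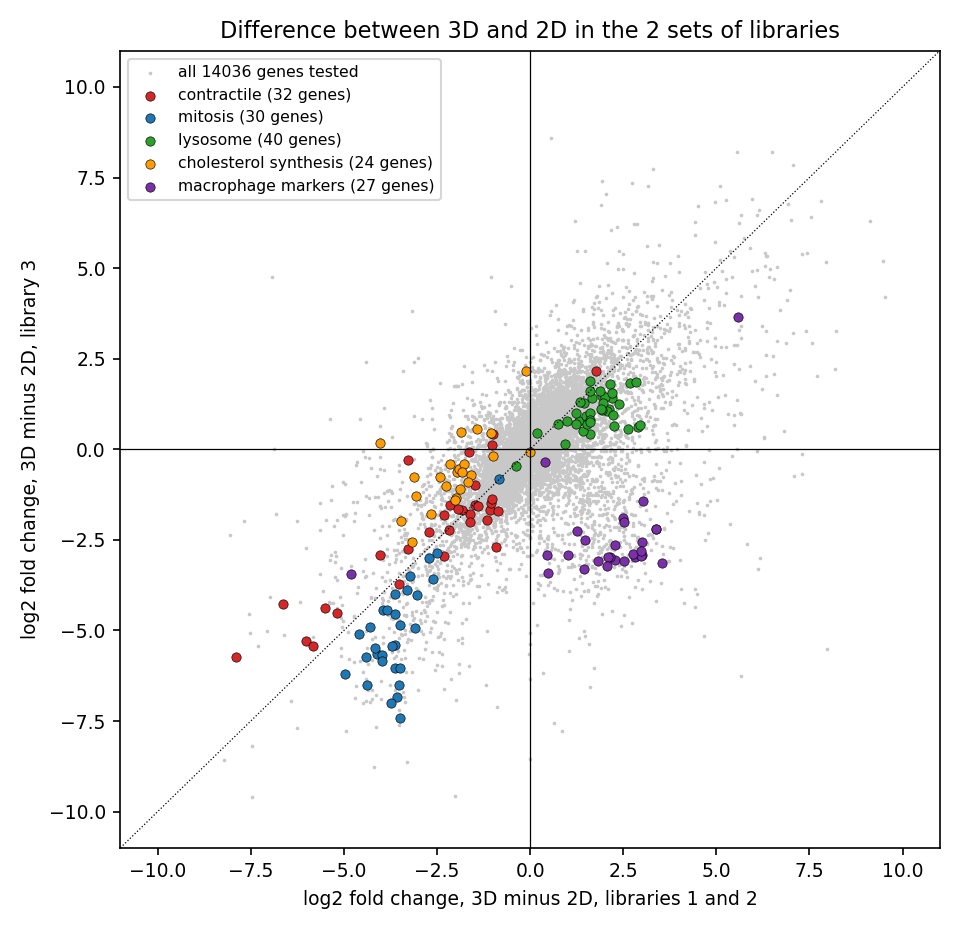
Each point is 1 of the 14036 genes tested, with its log2 fold change between 3D and 2D in libraries 1 and 2 on the x axis and in library 3 on the y axis, and the dotted line marks equal values. Contractile and mitosis genes lie at the lower left in nearly every case and lysosomal genes in the upper right, while 26 of 27 macrophage markers have a negative value in library 3 and 26 of 27 a positive value in libraries 1 and 2.

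Genes of the contractile apparatus fell together. Of 32, 26 fell in both sets and 1 rose, with a median log2 fold change of -1.88 in libraries 1 and 2 (30 lower, 1 higher) and -1.81 in library 3 (27 lower, 1 higher), beside medians over all genes of 0.021 and -0.013. Acta2 (smooth muscle actin), the defining gene of the myofibroblast, stood at 3368, 3876 and 1955 CPM in 2D libraries 1, 2 and 3 and at 50.4, 60.5 and 49.5 CPM in 3D. The 3 libraries of 2D were all far above those of 3D, with a log2 fold change of -6.03 ± 0.58 (SE) in libraries 1 and 2 and -5.30 ± 0.79 in library 3 (edgeR, adjusted p = 7.13e-08 and 3.56e-05). Tagln (transgelin, an actin-binding protein) stood at 1302, 1508 and 1185 CPM in 2D and 23.1, 26.7 and 27.4 CPM in 3D, and was the more even of these genes between the sets, at -5.82 ± 0.48 and -5.43 ± 0.67. Myl9, whose promoter is printed above, went from 256, 287 and 106 CPM to 6.80, 8.07 and 4.65 CPM. Vcl changed less, from 702, 694 and 746 CPM to 155, 153 and 158 CPM, with close values in the sets (-2.18 ± 0.31 and -2.24 ± 0.44). The 1 gene that rose, Mylk (myosin light chain kinase), was at 10.8, 9.70 and 2.35 CPM in 2D and 33.7, 35.9 and 10.6 CPM in 3D, and was named after its value was seen. Its groups overlap over all 6 libraries and do not overlap within a set.

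Targets of tension-sensitive cofactors fell as well. Among 30 targets and partners of YAP and TEAD, 14 fell in both sets and 2 rose. Ankrd1 went from 670, 808 and 1560 CPM in 2D to 8.33, 8.79 and 12.6 CPM in 3D. Ctgf, a secreted matricellular protein, went from 2891, 3111 and 4500 CPM to 262, 262 and 245 CPM, and Amotl2, an inhibitor of YAP that YAP itself induces, from 431, 446 and 449 CPM to 39.0, 35.1 and 20 CPM. For both, the libraries of 3D lay below every library of 2D, and library 3 had the more negative value (Ctgf -3.52 ± 0.39 and -4.20 ± 0.57, Amotl2 -3.56 ± 0.14 and -4.49 ± 0.21). That difference between the sets was called for Amotl2 (0.93 ± 0.22, edgeR, adjusted p = 0.0193) and not for Ctgf (adjusted p = 0.589). The call for Amotl2 was lost without 2D replicate 1 and without 3D replicate 1.

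Other parts of the spread cell were lower as well. Of 9 caveola genes, which code for the coat of the membrane pits that buffer stretch, 6 fell in both sets and none rose in either. Cav1 (caveolin 1) stood at 231, 230 and 161 CPM in 2D and 6.04, 7.55 and 16.6 CPM in 3D, and Sdpr (cavin 2) at 320, 333 and 418 CPM and 9.70, 9.93 and 21.3 CPM. Both were higher in 3D library 3 than in the other libraries of 3D and still far below 2D. Of 30 genes of integrin adhesions, 9 fell in both sets and 1 rose, with 17 lower in libraries 1 and 2 and 11 in library 3. Parva (alpha-parvin) fell evenly, by 1.84 ± 0.14 and by 1.72 ± 0.20 on the log2 scale. Itga11, a collagen receptor of fibroblasts, changed by -3.04 ± 0.53 in libraries 1 and 2, and by -0.75 ± 0.69 in library 3, where it was not called. The difference between the sets was not called for Itga11. Its fall over all 6 libraries was not called with the replicate number as a block (-2.29, edgeR, adjusted p = 0.0541).

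Genes of cell division had larger falls. All 30 mitosis genes were called lower over the 6 libraries and in libraries 1 and 2, and 29 of 30 in library 3, with medians of -3.63 and -5.25. Their summed level was 2906, 2871 and 2332 CPM in 2D and 257, 211 and 83.3 CPM in 3D. Cdc20 stood at 103, 114 and 75.9 CPM in 2D and 4.77, 4.25 and 2.22 CPM in 3D, and Cdk1 at 95.3, 109 and 89.8 CPM and 10.8, 9.89 and 6.07 CPM. Anln (anillin), which builds the contractile ring between daughter cells, went from 291, 282 and 216 CPM to 10.3, 7.97 and 2.95 CPM. In each of the 3 genes, 3D library 3 was the lowest of the 6 libraries. The median over the list of the difference in log2 CPM, library 3 minus libraries 1 and 2, was -1.56 in 3D and -0.32 in 2D. Of the mitosis genes, 3 had a called difference between the sets, and 1 without 2D replicate 1, 2D replicate 2 or 3D replicate 1.

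DNA replication fell with mitosis, 27 of 31 genes in both sets and none rising, with medians of -2.0 and -2.82. Rrm2, a subunit of ribonucleotide reductase, stood at 121, 131 and 112 CPM in 2D and 13.1, 11.2 and 2.43 CPM in 3D. Uhrf1, which carries DNA methylation through replication, changed by -2.93 ± 0.52 and -5.01 ± 0.81. Of 24 tubulins, kinesins and their partners, 22 fell in both sets and none rose in either, among them the mitotic kinesin Kif20a (-4.26 ± 0.34 and -4.07 ± 0.48). Among 12 genes of the nuclear lamina and its links to the cytoskeleton, 6 fell in both sets. Lmnb1 (lamin B1) stood at 95.7, 99.6 and 87.1 CPM in 2D and 10.7, 10.8 and 7.98 CPM in 3D. Lists of cell cycle regulators were mixed. The cyclin D and CDK inhibitor list holds drivers as well as brakes of division, and of its 17 genes, 4 rose and 6 fell in both sets. Of 18 targets of p53, 2 rose and 1 fell in both sets. Ccnd1 (cyclin D1) stood at 174, 169 and 1343 CPM in 2D and 128, 85.8 and 97.1 CPM in 3D. Its fall was called over all 6 libraries (-2.44 ± 0.84, edgeR, adjusted p = 0.0178). It was not called without 2D replicate 3 (-0.73, edgeR, adjusted p = 0.439) or without 3D replicate 2 (-2.32, edgeR, adjusted p = 0.0589). Nor was it called in a fit of the 6 libraries alone with the replicate number as a block (-1.65, edgeR, adjusted p = 0.193).

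**Figure D2:**
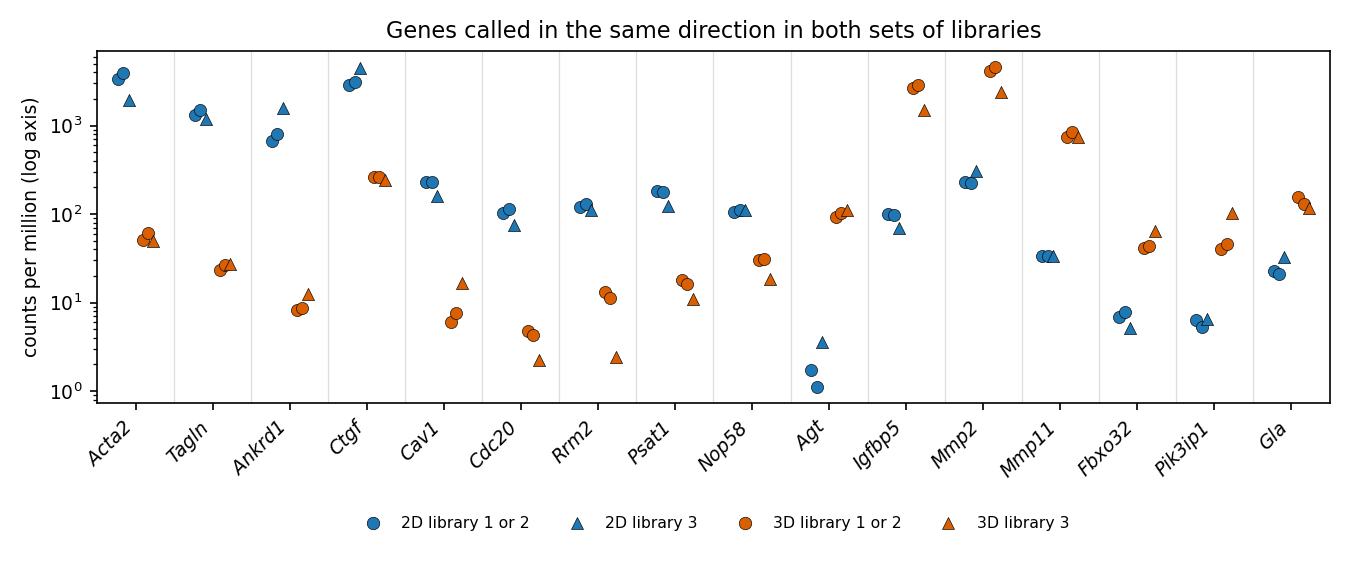
CPM on a log axis for 16 genes that rose or fell in both sets, in each of the 3 libraries of 2D (blue) and of 3D (orange), with triangles for library 3 and circles for libraries 1 and 2. The groups do not overlap for any of the 16 genes, and Acta2 stands at 1955 to 3876 CPM in 2D and at 49.5 to 60.5 CPM in 3D.

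Genes for making ribosomes and for supplying amino acids were lower in both sets. Of 24 ribosome biogenesis genes, 23 fell in both sets, with medians of -0.83 and -1.26. Nop58, a core protein of the particles that methylate ribosomal RNA, stood at 104, 111 and 112 CPM in 2D and 30.4, 31.4 and 18.6 CPM in 3D. Ncl (nucleolin) went from 707, 774 and 806 CPM to 320, 324 and 307 CPM. Of 32 proteins of the ribosome itself, 31 were called lower in libraries 1 and 2, with a median of -0.65, and 4 of 32 in library 3, with a median of -0.28. Over all 6 libraries 31 of the 32 were called, and 18 in a fit of the 6 libraries alone with the replicate number as a block. Rps2 changed by -0.90 ± 0.11 in libraries 1 and 2 and by -0.40 ± 0.16 in library 3, which missed the threshold (edgeR, adjusted p = 0.0509). No ribosomal protein had a called difference between the sets.

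Of 35 genes of serine, one-carbon and amino acid supply, which the factor ATF4 induces, 19 fell in both sets and 1 rose, with medians of -1.06 and -0.63. Psat1, the transaminase of serine synthesis, stood at 182, 176 and 124 CPM in 2D and 17.8, 16.1 and 11 CPM in 3D, and its log2 fold changes were close in the sets (-3.40 ± 0.18 and -3.50 ± 0.25, a difference of 0.09 ± 0.28). The arginine transporter Slc7a1 changed by -2.26 ± 0.34 and -2.52 ± 0.49. Mthfd2, of mitochondrial folate metabolism, was at 103, 106 and 33.1 CPM in 2D and 22.6, 22.7 and 7.01 CPM in 3D, and Asns (asparagine synthetase) at 188, 191 and 51.9 CPM and 45.5, 50.4 and 22.2 CPM. For Mthfd2 and Asns, library 3 was the lowest in both arrangements, and 2D library 3 came close to 3D libraries 1 and 2, while within each set 3D was well below 2D. Of 22 chaperones of the endoplasmic reticulum, 4 fell in both sets and none rose in either.

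Targets of the FoxO factors, which are held out of the nucleus while insulin and growth factor signalling is active, rose. Of 22 genes, 14 rose in both sets and 1 fell, with medians of 1.41 and 1.25. Fbxo32 (atrogin-1), a ubiquitin ligase of protein breakdown, stood at 6.82, 7.89 and 5.10 CPM in 2D and 41.7, 44.1 and 64.6 CPM in 3D. Pik3ip1, an inhibitor of PI3 kinase, went from 6.41, 5.28 and 6.60 CPM to 40.7, 46.0 and 103 CPM, and Sepp1, which carries selenium, from 101, 97.6 and 161 CPM to 1080, 1046 and 896 CPM. Fbxo32 and Pik3ip1 were highest in 3D library 3, and neither had a called difference between the sets (adjusted p = 0.425 and 0.0819). The pro-apoptotic genes Bmf and Bcl2l11 rose in both sets, Bmf by 3.97 ± 0.48 and 5.34 ± 0.69 and Bcl2l11 by 2.61 ± 0.30 and 2.79 ± 0.42. Of the 14 genes of the BCL2 family as a whole, 3 rose and 2 fell in both sets.

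Lysosomal genes rose together. Of 40, 38 were called higher in libraries 1 and 2 and 30 in library 3, 29 rose in both sets, and none was called lower in either set. The medians were 1.77 and 1.01. Gla stood at 22.8, 21.3 and 32.6 CPM in 2D and 156, 129 and 116 CPM in 3D, and Lamp1 at 828, 808 and 1068 CPM and 2050, 1985 and 1828 CPM. Naglu, which breaks down heparan sulphate, went from 35.9, 29.4 and 65.9 CPM to 229, 241 and 237 CPM. For each of the 3 genes the groups did not overlap. The summed level of macrophage markers moved with this list in libraries 1 and 2, where it was 1902 and 2001 CPM in 2D and 13216 and 9257 CPM in 3D. In library 3, where 30 of 40 lysosomal genes were higher in 3D, the macrophage sum was 2254 CPM in 2D and 370 CPM in 3D. Lysosomal genes with a called difference between the sets numbered 9, all with the higher value in libraries 1 and 2, and 6, 7, 3 and 8 without 2D replicate 1, 2D replicate 2, 3D replicate 1 and 3D replicate 2. The part of macrophage RNA in these values was not tested. Psap (prosaposin) was one, at 1029, 1022 and 1356 CPM in 2D and 8899, 6840 and 2149 CPM in 3D (not called without 3D replicate 1), and Ctss (cathepsin S), itself on the macrophage list, another, at 83.3, 86.6 and 99.1 CPM and 1019, 736 and 21.6 CPM.

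The proton pump that acidifies the lysosome rose in 9 of 15 genes in both sets and fell in none. Its subunit gene Atp6v1a was at 161, 160 and 172 CPM in 2D and 400, 356 and 393 CPM in 3D. Of 28 autophagy genes, 10 rose in both sets and none fell in both, with medians of 0.43 and 0.51. Map1lc3b, which coats the autophagosome, rose by 1.25 ± 0.12 and 1.41 ± 0.17, and the cargo receptor gene Sqstm1 by 1.08 ± 0.13 and 1.48 ± 0.18.

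Among the 16 largest rises present in both sets, at a mean log2 CPM of 3 or more, were Agt, Dkk3, Igfbp5, Eef1a2 and Pde7b. Agt (angiotensinogen), the precursor of angiotensin, stood at 1.75, 1.10 and 3.60 CPM in 2D and 91.7, 103 and 112 CPM in 3D, a log2 fold change of 6.09 ± 0.63 and 4.96 ± 0.78. Dkk3, a secreted relative of Wnt inhibitors, stood at 4.08, 3.94 and 13.3 CPM and 264, 292 and 245 CPM, and Igfbp5, which binds insulin-like growth factors, at 101, 98.5 and 69.2 CPM and 2623, 2850 and 1503 CPM. Each of these 3 genes was higher in all 3D libraries than in any 2D library. Eef1a2, an elongation factor gene, and Pde7b, a phosphodiesterase, rose by 4.93 ± 0.72 and 4.29 ± 0.73 in libraries 1 and 2 and by 4.62 ± 0.97 and 3.91 ± 0.96 in library 3. Among the largest falls was Cemip, which degrades hyaluronan, from 2402, 2118 and 1090 CPM to 39.5, 39.8 and 30.3 CPM. It changed by -5.83 ± 0.33 in libraries 1 and 2 and by -5.17 ± 0.45 in library 3.

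Matrix genes did not move in 1 direction. Of 25 collagen chains, 7 rose and 1 fell in both sets, and the fibrillar chains Col1a1, Col1a2 and Col3a1 were called in neither set. Named after their values were seen, the 3 chains of collagen VI, which forms the network next to the cell, rose in both sets. Col6a1 stood at 665, 642 and 382 CPM in 2D and 1270, 1435 and 898 CPM in 3D, Col6a2 at 452, 437 and 138 CPM and 1033, 1163 and 336 CPM, and Col6a3 at 97.8, 87.8 and 23.6 CPM and 340, 351 and 85.0 CPM. For Col6a2 and Col6a3, 3D library 3 lay below 2D libraries 1 and 2, so that the groups overlap over all 6 libraries and do not overlap within a set. Col18a1, a chain of basement membranes, rose by 2.10 ± 0.38 and 2.73 ± 0.54. The chain that fell in both sets was Col8a1, from 1500, 1434 and 1291 CPM to 124, 136 and 361 CPM.

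Of 22 genes for enzymes that finish collagen, 15 were lower in libraries 1 and 2 and 7 in library 3, and 7 fell and 2 rose in both sets. Lox, which cross-links collagen and elastin, stood at 4707, 4247 and 2693 CPM in 2D and 211, 236 and 772 CPM in 3D. Its fall was called in both sets and was smaller in library 3 (-4.32 ± 0.46 and -1.80 ± 0.58), a difference of -2.52 ± 0.71 (edgeR, adjusted p = 0.0410) that was not called without any 1 of libraries 1 and 2. Among 34 matrix proteases, 9 rose and 4 fell in both sets. Mmp2 (gelatinase A) stood at 227, 224 and 310 CPM in 2D and 4121, 4613 and 2376 CPM in 3D, and Mmp11 (stromelysin 3) at 33.4, 33.6 and 34 CPM and 738, 837 and 741 CPM. Mmp11 was thus nearly the same in all libraries of a group, and rose by 4.55 ± 0.23 and 4.45 ± 0.32. Of 30 elastic and matricellular genes, 9 rose and 2 fell in both sets, with Tgfbi, a protein of the collagen surface, up by 3.67 ± 0.29 and 3.46 ± 0.41 and Npnt (nephronectin) changed by -3.99 ± 0.51 and -4.12 ± 0.72.

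Among ligands and receptors, 7 of 31 growth factor genes fell and 3 rose in both sets, with 10 lower and 7 higher in libraries 1 and 2 and 11 lower and 4 higher in library 3. Bdnf (brain-derived neurotrophic factor) went from 97.7, 95.6 and 138 CPM to 8.89, 10.3 and 12.6 CPM. Of the TGF-beta family list of 21 genes, 3 rose and 2 fell in both sets, with Inhba, the chain of activin A, changed by -3.61 ± 0.34 and -3.02 ± 0.45 and Tgfbr3 (betaglycan) by 2.11 ± 0.25 and 0.95 ± 0.34. Of 24 BMP genes, 3 rose and 4 fell. Gdf6, a BMP ligand, went from 523, 491 and 354 CPM to 37.9, 43.5 and 40.7 CPM, and the receptor gene Acvrl1 from 194, 188 and 110 CPM to 50.2, 47.3 and 28.4 CPM. Of 28 Wnt genes, 6 rose and 3 fell in both sets. Fzd1, a Wnt receptor, rose by 1.80 ± 0.38 and 2.44 ± 0.54. Edn1 (endothelin 1) was at 30.8, 36.4 and 29.1 CPM in 2D and 1.17, 1.15 and 0.521 CPM in 3D. Of 23 cadherin and connexin genes, 9 fell and 1 rose in both sets. Cdh2 (N-cadherin) changed by -1.36 ± 0.12 and -1.01 ± 0.17.

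**Figure D3:**
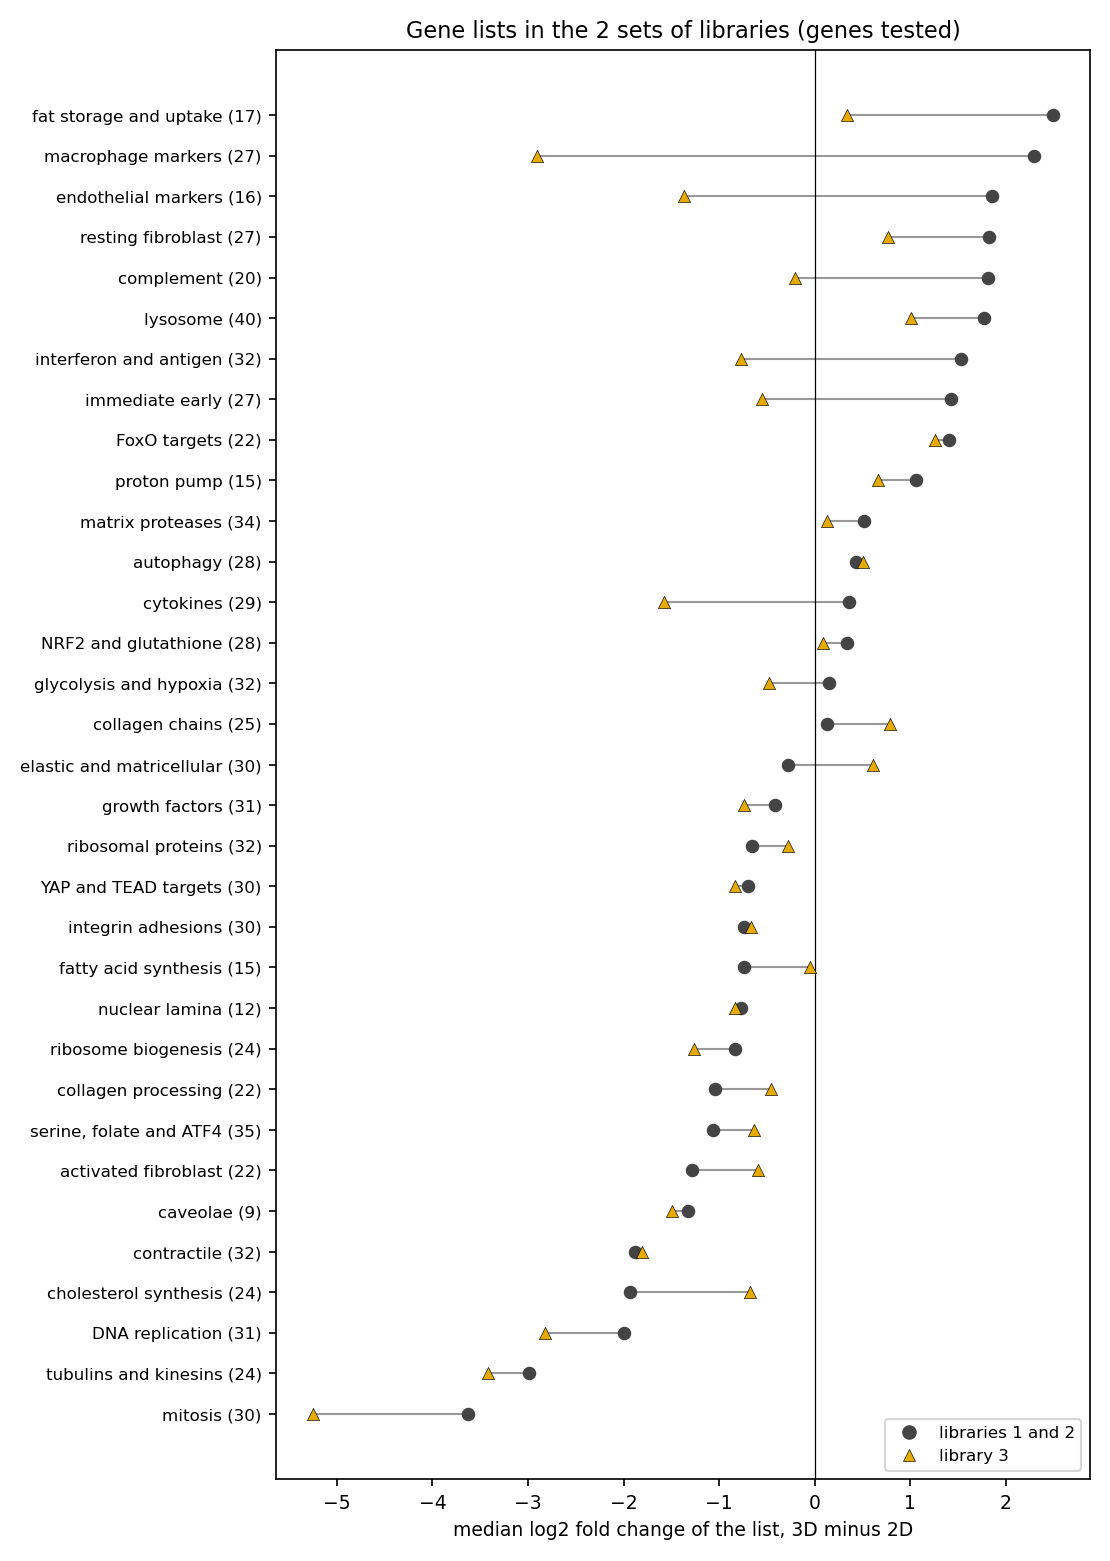
Median log2 fold change between 3D and 2D of 33 gene lists, with the number of genes tested in parentheses, in libraries 1 and 2 (circles) and in library 3 (triangles). The contractile list has -1.88 and -1.81 and the FoxO targets 1.41 and 1.25, while macrophage markers have 2.29 in libraries 1 and 2 and -2.91 in library 3.

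Other programmes differed between libraries 1 and 2 and library 3. Of 27 macrophage markers, 17 were called higher and 1 lower in libraries 1 and 2, and 1 higher and 5 lower in library 3. The 17 came to 9, 8, 11 and 15 without 2D replicate 1, 2D replicate 2, 3D replicate 1 and 3D replicate 2. The difference between the sets was called for 16 of the 27, all with the higher value in libraries 1 and 2. Without 3D replicate 1 that count was 1, without 2D replicate 1 or 2 it was 1 in each case, and without 3D replicate 2 it was 9. Mmp12 (macrophage elastase) stood at 77.3, 76.4 and 116 CPM in 2D and 1196, 897 and 17.8 CPM in 3D, and Msr1, a scavenger receptor, at 39.7, 40.5 and 45.4 CPM and 334, 230 and 3.26 CPM. Fcgr1, an Fc receptor, was at 3.49, 4.50 and 6.53 CPM and 54.1, 39.9 and 0.729 CPM. The called difference between the sets was lost for Mmp12 without 2D replicate 1, and for Msr1 and Fcgr1 without 2D replicate 1, 2D replicate 2 or 3D replicate 1. In each of these genes the 3 libraries of 2D were near each other, 3D libraries 1 and 2 were the highest and 3D library 3 the lowest of the 6. Over the list, the median difference in log2 CPM, library 3 minus libraries 1 and 2, was -5.02 in 3D and -0.069 in 2D.

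A pair of macrophage markers was called the same way in both sets. Cx3cr1, the fractalkine receptor, stood at 24.4, 22.9 and 11.7 CPM in 2D and 0.812, 0.860 and 1.08 CPM in 3D, and Lyve1, a hyaluronan receptor that also marks lymphatic vessels, at 0.499, 0.473 and 2.43 CPM and 22.8, 24.2 and 30.8 CPM. Csf1, the growth factor of macrophages, which fibroblasts make, was at 1862, 2035 and 4046 CPM in 2D and 269, 304 and 387 CPM in 3D, a fall in both sets.

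Of 32 genes of the interferon response and antigen presentation, 21 were higher in libraries 1 and 2 and 1 lower, with a median of 1.53, and in library 3 none was higher and 2 were lower, with a median of -0.77. Leaving out 1 of libraries 1 and 2 brought the 21 rises to between 10 and 13. H2-D1, which presents antigen, stood at 34.4, 36.8 and 61.2 CPM in 2D and 179, 166 and 55.4 CPM in 3D. The difference between the sets was called for 5 of the 32, and for fewer without any 1 of libraries 1 and 2. The list's median difference in log2 CPM, library 3 minus libraries 1 and 2, was 1.42 in 2D and -0.42 in 3D. Of 20 complement genes, 11 were higher in libraries 1 and 2 (6 without any 1 of these libraries) and 2 in library 3, and none rose in both sets. Of the complement genes, 4 had a called difference between the sets, and fewer did without any 1 of libraries 1 and 2. C3ar1, the receptor of C3a, was at 40.4, 35.9 and 62.2 CPM in 2D and 388, 249 and 7.01 CPM in 3D. Hmox1 (heme oxygenase 1), on the NRF2 list, was also highest in 3D libraries 1 and 2, and was at 175, 181 and 427 CPM and 2521, 1948 and 288 CPM. These lists moved with the macrophage sum in libraries 1 and 2, and the part of macrophage RNA in them was not tested.

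**Figure D4:**
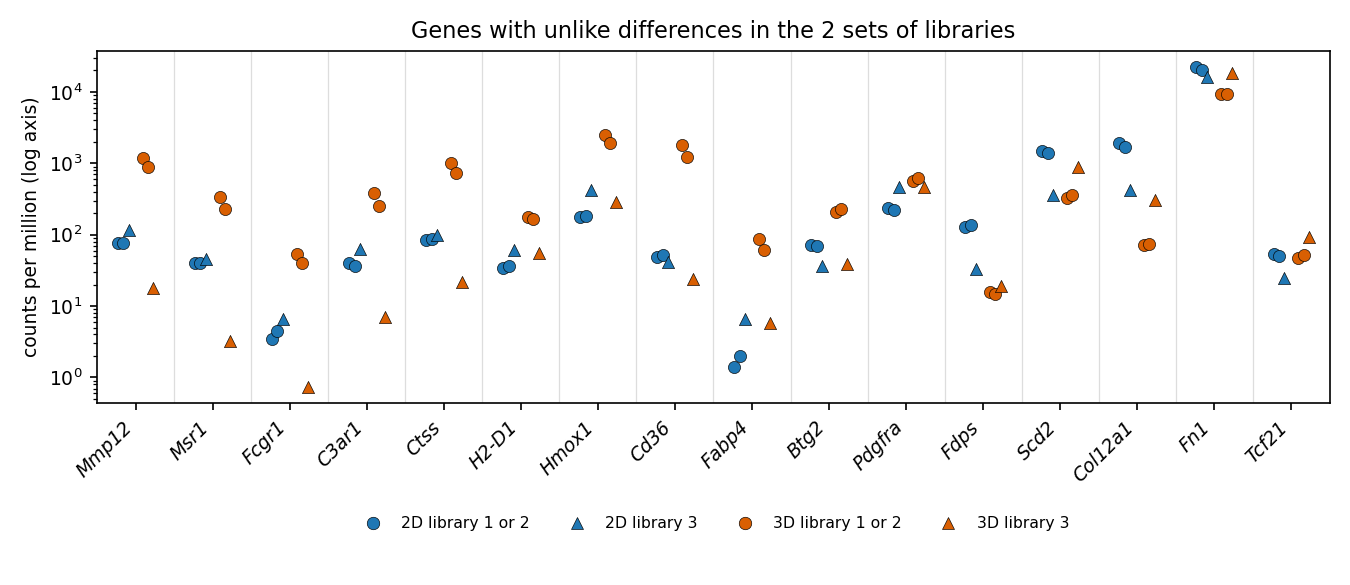
CPM on a log axis for 16 genes with unlike differences in the sets, in each library of 2D (blue) and 3D (orange). Triangles mark library 3 and circles libraries 1 and 2. The difference between the sets was called for each gene except Cd36. From Mmp12 to Fabp4, 3D libraries 1 and 2 lie above the other 4 libraries and 3D library 3 does not, as for Msr1 with 334, 230 and 3.26 CPM, whereas Scd2 and Col12a1 have 2D library 3 far below 2D libraries 1 and 2.

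Immediate early genes, which respond within minutes to serum, stretch or handling, also split. Of 27, 19 were higher in libraries 1 and 2, with a median of 1.42, and in library 3 2 were higher and 10 lower, with a median of -0.55. The difference between the sets was called for 11, all with the higher value in libraries 1 and 2, and for 6 to 8 when 1 of libraries 1 and 2 was left out. Fos rose in both sets, from 29.6, 30.9 and 12.6 CPM to 446, 528 and 45.9 CPM. Btg2, an early gene that restrains division, rose in libraries 1 and 2 (1.63 ± 0.22) and had 0.05 ± 0.31 in library 3, a difference that was not called without 2D replicate 2. Genes of fat uptake and storage were higher in 14 of 17 cases in libraries 1 and 2 and in 7 of 17 in library 3, with medians of 2.49 and 0.34. Their summed level of 7856, 6186 and 1520 CPM in 3D moved with the macrophage sum of 13216, 9257 and 370 CPM, and its part in the result was not tested. Cd36, a fatty acid transporter that macrophages also express, was at 49.4, 52.0 and 41.6 CPM in 2D and 1819, 1230 and 24.0 CPM in 3D. Fabp4 followed it (1.41, 1.97 and 6.63 CPM, then 86.5, 60.8 and 5.87 CPM). The difference between the sets was called for 7 of the 17, all with the higher value in libraries 1 and 2. Fewer were called without any 1 of those libraries. Among the 7 was Fabp4, and Cd36 was not. Plin4, which coats lipid droplets, rose in both sets by 4.22 ± 0.51 and 3.79 ± 0.61.

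Cholesterol synthesis genes were called lower mainly in libraries 1 and 2. There 22 of 24 genes were lower and the median was -1.93, and in library 3 7 were lower, 2 higher, and the median was -0.67, with 7 falling in both sets. Idi1, an isomerase of the pathway, stood at 88.4, 86.0 and 27.8 CPM in 2D and 8.12, 7.78 and 7.08 CPM in 3D. Fdps, a prenyl synthase, was at 129, 134 and 32.6 CPM and 15.8, 14.8 and 19.3 CPM. For these genes the 3D libraries were alike and 2D library 3 was lower than the other libraries of 2D. In library 3, 19 of the 24 genes had a negative value. The difference between the sets was called for 5 of the 24, all with the lower value in libraries 1 and 2. Fewer were called without any 1 of those libraries. Over the list, the median difference in log2 CPM, library 3 minus libraries 1 and 2, was -1.30 in 2D and 0.035 in 3D. Scd2, a fatty acid desaturase, changed sign, at 1503, 1394 and 364 CPM in 2D and 330, 354 and 881 CPM in 3D (-2.08 ± 0.22 and 1.28 ± 0.30).

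Several matrix and identity genes also differed between the sets. Col12a1, a collagen that decorates fibrils, stood at 1925, 1717 and 416 CPM in 2D and 70.8, 73.2 and 307 CPM in 3D, and changed by -4.66 ± 0.37 in libraries 1 and 2 and by -0.44 ± 0.45 in library 3. Of the 25 collagen chains, 8 had a called difference between the sets, all with the lower value in libraries 1 and 2, and 5 or 6 without any 1 of libraries 1 and 2. Fn1 (fibronectin) was lower in libraries 1 and 2 (-1.18 ± 0.14) and had 0.19 ± 0.20 in library 3. Tcf21, a transcription factor of resting cardiac fibroblasts, was at 53.5, 50.7 and 24.9 CPM in 2D and 46.8, 51.9 and 92.2 CPM in 3D, called higher in library 3 (1.89 ± 0.45) and not called in libraries 1 and 2 (-0.08 ± 0.31). Pdgfra, the PDGF receptor by which these cells are known, rose in libraries 1 and 2 (1.38 ± 0.16) and had 0.02 ± 0.22 in library 3. The difference between the sets was called for all 5 of Scd2, Col12a1, Fn1, Tcf21 and Pdgfra, and that for Tcf21 was lost without any 1 of libraries 1 and 2. Of 27 genes of resting fibroblasts, 14 were higher in libraries 1 and 2 and 5 in library 3, with 4 rising in both sets, among them the globin Cygb (82.7, 77.3 and 54.3 CPM to 623, 716 and 488 CPM). The difference between the sets was called for 4 of these 27 with the higher value in libraries 1 and 2. It was called for 1 with the lower value, and both counts fell without any 1 of those libraries. Of 22 genes of activated fibroblasts, 7 fell and 3 rose in both sets.

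The nearest comparison in the series set 3 libraries of 3D-5days against 3 of 2D-5days, cells of mice of the same strain and age range, and shares no library with the one described here. It called 2098 genes higher (14.9%) and 2450 lower (17.5%). Of the 1809 genes that rose in both sets, 758 (41.9%) were also higher at 5 days and 72 were lower there. Of the 2103 that fell, 937 (44.6%) were lower and 68 higher. Among genes called over the 6 libraries that did not hold in both sets, 31.0% of the rises and 34.4% of the falls were called the same way at 5 days.

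Contractile and mitosis genes were lower in 3D in both comparisons. At 5 days, 27 of 32 contractile genes, 18 of 30 YAP and TEAD genes and 27 of 30 mitosis genes were lower in 3D. The difference between the comparisons was called with a lower value where no time is stated for 13 of 32 contractile and 13 of 30 mitosis genes (12.3% of all genes tested). DNA replication had 7 of 31 genes lower at 5 days, ribosome biogenesis 6 of 24 higher and none lower, and the serine and ATF4 list 8 of 35 higher and 1 lower. The test of the difference between the comparisons took the mean over all 6 libraries and was not run for each set. It called 21 replication genes and 23 ribosome biogenesis genes with a lower value where no time is stated. The same was so for 25 of 32 ribosomal proteins and 24 of 35 serine and ATF4 genes. The median of the ribosomal proteins was -0.65 in libraries 1 and 2 and -0.28 in library 3. Psat1 changed by 0.38 ± 0.18 at 5 days, which was not called, a difference of -3.81 ± 0.26 (edgeR, adjusted p = 3.11e-09). Nop58 changed by -0.11 ± 0.22 at 5 days, a difference of -1.92 ± 0.31.

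Rises also differed in extent. FoxO targets were higher in 6 of 22 cases at 5 days, and 12 had a higher value where no time is stated (13.2% of all genes tested). Pik3ip1 changed by -0.05 ± 0.25 at 5 days and Bmf by 0.63 ± 0.37, and both differences from the value with no stated time were called (3.42 ± 0.36 and 3.85 ± 0.56). Lysosomal genes were higher in 31 of 40 cases at 5 days, and 25 had a higher value where no time is stated. Gla rose by 2.35 ± 0.24 at 5 days and by 2.38 ± 0.24 where no time is stated, a difference of 0.03 ± 0.33. Collagen chains were lower at 5 days in 11 of 25 cases and higher in 3, and 14 had a higher value where no time is stated. No macrophage marker had a called difference between the comparisons, and 8 of 27 were higher at 5 days. That test took the mean over all 6 libraries. The median of these markers was 2.29 in libraries 1 and 2, -2.91 in library 3 and 1.515 at 5 days. The lack of a call therefore does not show that either set was like the comparison at 5 days.

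**Figure D5:**
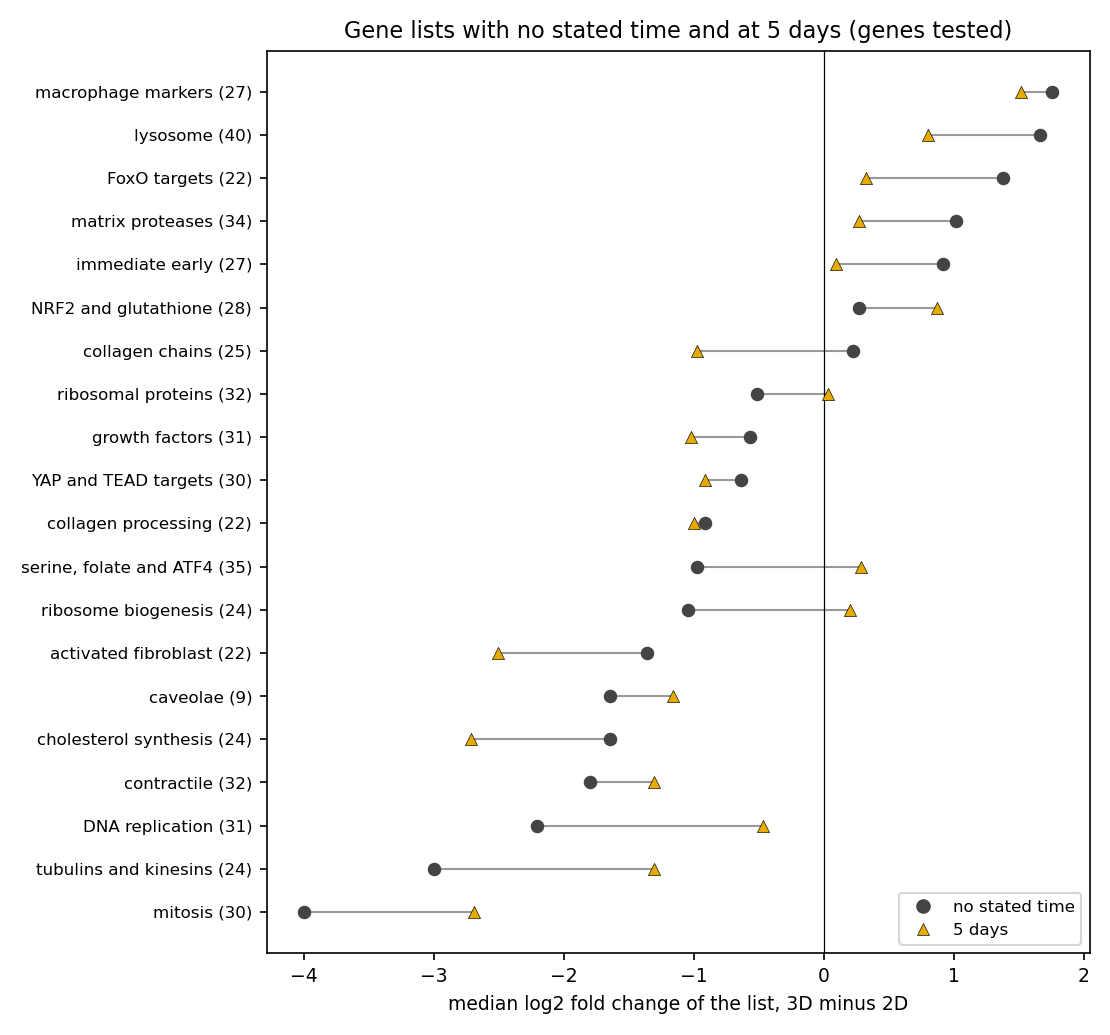
Median log2 fold change between 3D and 2D of 20 gene lists, with the number of genes tested in parentheses, over the 6 libraries with no stated time (circles) and at 5 days (triangles). The contractile list has -1.80 and -1.31, whereas DNA replication has -2.21 and -0.47 and ribosome biogenesis -1.05 and 0.20.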

How the data were processed

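RNA was measured in 29 libraries, and the 6 described here are 3 of 2D and 3 of 3D. The authors deposited raw read counts per gene for 24421 gene lines, named by symbol. The submitters' processing notes name TopHat, HTSeq, Bowtie and MACS2 and the build mm10, with no versions, and no source used here gives each tool's role, the annotation or whether strand was used, so genes that overlap or share reads with a near-identical copy are uncertain. Of the symbols, 25 had been turned into dates and 24274 matched a RefSeq symbol or synonym. The 5 summary lines were left out of library sizes: reads that mapped to several places were 14.1 to 17.2% of each library's reads and those in no gene 6.51 to 7.99%.

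Genes passing edgeR's filterByExpr (14036) were fitted with edgeR 4.0.16 in R 4.3.3, with TMM scaling, robust quasi-likelihood dispersion and 1 mean per group. A second fit gave libraries 1 and 2, and library 3, means of their own in 2D and 3D. Adjusted p-values are Benjamini-Hochberg values over the 14036 genes, and errors of log2 fold changes are SE. Alternatives were other scalings, filters, DESeq2 1.42.0, only the groups compared and each library left out. Another was the replicate number as a block, fitted on the groups compared alone. A fit with libraries 1 and 2 summed was added after the data were seen.

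The labels give only replicate numbers, and the block used those numbers. Whether the numbers pair libraries was looked at in the data. Deviations from the group means correlated at 0.141, 0.23 and 0.232 over 14036 genes between libraries numbered 1, 2 and 3. They also correlated at 0.165 for 2D library 2 with 3D library 1 and at 0.186 for 2D library 1 with 3D library 2, so these values set library 3 apart and do not pair library 1 or 2 by number. Genes named were the 16 largest rises and falls called in both sets at a mean log2 CPM of 3 or more, the 10 largest differences between sets on each side, up to 4 called members of each of 59 gene lists, and fibroblast markers. Cdk1, Col6a1, Col6a2, Col6a3, Lamp1, Mylk and Vcl fall outside this rule and were chosen after their values were seen. The groups, lists and genes were chosen with earlier results of these data known. Chromatin accessibility samples of the series were not analysed here.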

Additional observations from a re-analysis of the deposited data

Results flagged for a closer look

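The difference between 3D and 2D was compared between libraries 1 and 2 and library 3 by a contrast of the 2 sets in edgeR's quasi-likelihood fit, and 842 genes passed it, 497 higher in libraries 1 and 2 and 345 lower. Without 1 of libraries 1 and 2 these counts came to as few as 147 and 170, both without 3D replicate 1, and with libraries 1 and 2 summed to 86 and 115. Among the genes named above, the difference was higher in libraries 1 and 2, on the log2 scale, by 6.70 for Fcgr1, 6.61 for Msr1, 6.48 for Mmp12, 6.21 for C3ar1, 5.61 for Fabp4, 5.57 for Ctss, 4.22 for Hmox1 and 2.42 for H2-D1. It was also higher there by 2.28 for Psap, 1.91 for Dkk3, 1.58 for Btg2, 1.36 for Pdgfra and 0.93 for Amotl2. The value in libraries 1 and 2 less that in library 3 was -4.22 for Col12a1, -3.36 for Scd2, -2.52 for Lox, -2.35 for Fdps, -1.97 for Tcf21, -1.66 for Col8a1 and -1.37 for Fn1. Of these 20 genes, 11 kept the call without each of libraries 1 and 2 in turn, and 6 with these libraries summed.

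The difference between 3D and 2D where no time is stated was compared with that at 5 days in the same way, and 3583 genes passed.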

How the results depend on the processing

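All 66 named genes that rose or fell in both sets kept those calls without each of libraries 1 and 2 in turn and with these libraries summed. Leaving out 1 library gave 3145 to 3586 genes higher and 3433 to 3870 lower in 3D, 2364 to 3493 and 2800 to 3736 in libraries 1 and 2, 2473 to 2558 and 2552 to 2644 in library 3, 1414 to 1557 and 1756 to 1863 in both sets, 147 to 350 and 170 to 240 for the difference between the sets, 1643 to 2093 and 2004 to 2468 at 5 days, and 1431 to 2021 and 1308 to 1865 for the difference from 5 days. With the replicate number as a block, 2534 genes were higher and 2773 lower, and at 5 days 2730 and 2535. Under the block, 17 of the 84 named genes called over all libraries lost the call. With only the groups compared in the fit, library 3 gave 4174 higher and 4584 lower, the difference between the sets 2644 and 1994, and 5 days 1353 higher. Without a filter on low counts the difference between the sets was higher in libraries 1 and 2 for 316 genes. With libraries 1 and 2 summed, that set gave 1888 higher and 2360 lower and the difference between the sets 86 and 115. Fewer genes rose or fell in both sets with libraries 1 and 2 summed than in the main fit. The 66 named ones, chosen largely by size of change, all held. DESeq2 called 4058 genes higher and 3733 lower. In library 3 alone the sign over all 6 libraries was reversed for C3ar1 (-3.15), Cd36 (-0.79), Ctss (-2.20), Fabp4 (-0.18), Fcgr1 (-3.15), Fn1 (0.19), H2-D1 (-0.14), Hmox1 (-0.57), Mmp12 (-2.71), Msr1 (-3.80) and Scd2 (1.28); the cause was not tested. Library 3 has 1 library per group, which limits what its values can show.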
